A study of Mus musculus with 12 samples.

Results

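PPAR-alpha, its partner regulators in fasting and the enzymes of ketone body synthesis were followed here as 8 genes: Ppara, Creb3l3, Fgf21, Angptl4, Pdk4, Vnn1, Acat1 and Bdh1. They were taken by symbol from the table of 57010 genes, where each symbol named 1 row. All 8 reached 1 TPM (transcripts per 1e6, an abundance corrected for transcript length) in at least 6 libraries and so were among the 9980 genes tested. Liver RNA came from male wild-type C57BL/6J mice, 6 weeks old at the start and on a normal diet, and gave 12 numbered libraries, for which separate mice are implied but not stated; the protocol speaks of 10 mice a group, and the labels add hepatocyte to the liver source without naming a cell isolation. The selenium group (n = 6) was gavaged daily with Aspergillus oryzae A02, a filamentous food fungus grown with selenium, at 0.5 mg selenium per kg in saline. The control group (n = 6) was untreated according to its label, and whether it received saline is not stated. Fungus and selenium were given together and cannot be told apart, so the word selenium below names a group. Feeding lasted 8 weeks in the design text, the sample descriptions give 14 weeks, and the time of sampling and the feeding state at death are not given.

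PPAR-alpha is a nuclear receptor that binds fatty acids and, paired with RXR, switches on fatty acid oxidation and ketone body synthesis when the liver is fasted. CREB3L3 is a transcription factor anchored in the endoplasmic reticulum and released by cleavage, and it acts with PPAR-alpha on the gene of the liver hormone FGF21. In ketone body synthesis mitochondrial acetyl-CoA is condensed by ACAT1, turned into acetoacetate in further steps, and reduced by BDH1 to beta-hydroxybutyrate.

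The libraries held 9230 to 10533 genes at 1 TPM or more, and the depth behind the values is unknown because TPM keeps none. The clock gene Dbp was at 15.7 TPM or more in selenium 1 and 5 and controls 5 and 6 and at 1.44 TPM or less in the other 8 libraries, so values are also given within these sets. Selenium 4 carried skeletal muscle transcripts. Its 5 muscle markers summed to 173 TPM, against 0.91 to 1.43 TPM in the other selenium libraries and 0.41 to 1.70 TPM in controls. Hepatocyte markers summed to 38914 to 57425 TPM with selenium and 34634 to 58195 TPM in controls, which fits the liver label. The lymphocyte list stayed at or under 3.21 TPM in every library. These are bulk samples, so fewer cells of a type and less RNA per cell cannot be told apart.

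The levels of the 8 genes differed widely. With selenium the order of the mean TPM was Bdh1, Acat1, Creb3l3, Angptl4, Fgf21, Ppara and then Pdk4 and Vnn1. In controls it was Acat1, Bdh1, Creb3l3, Angptl4, Fgf21, Ppara, Pdk4 and Vnn1. Neighbours in these orders overlapped in mean ± SD except Angptl4 and Fgf21 in both groups and Creb3l3 and Angptl4 with selenium. Fgf21, Ppara, Pdk4 and Vnn1 therefore formed a low set in both groups, and Angptl4 stood apart from the higher 3 with selenium and not in controls.

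**Figure D1:**
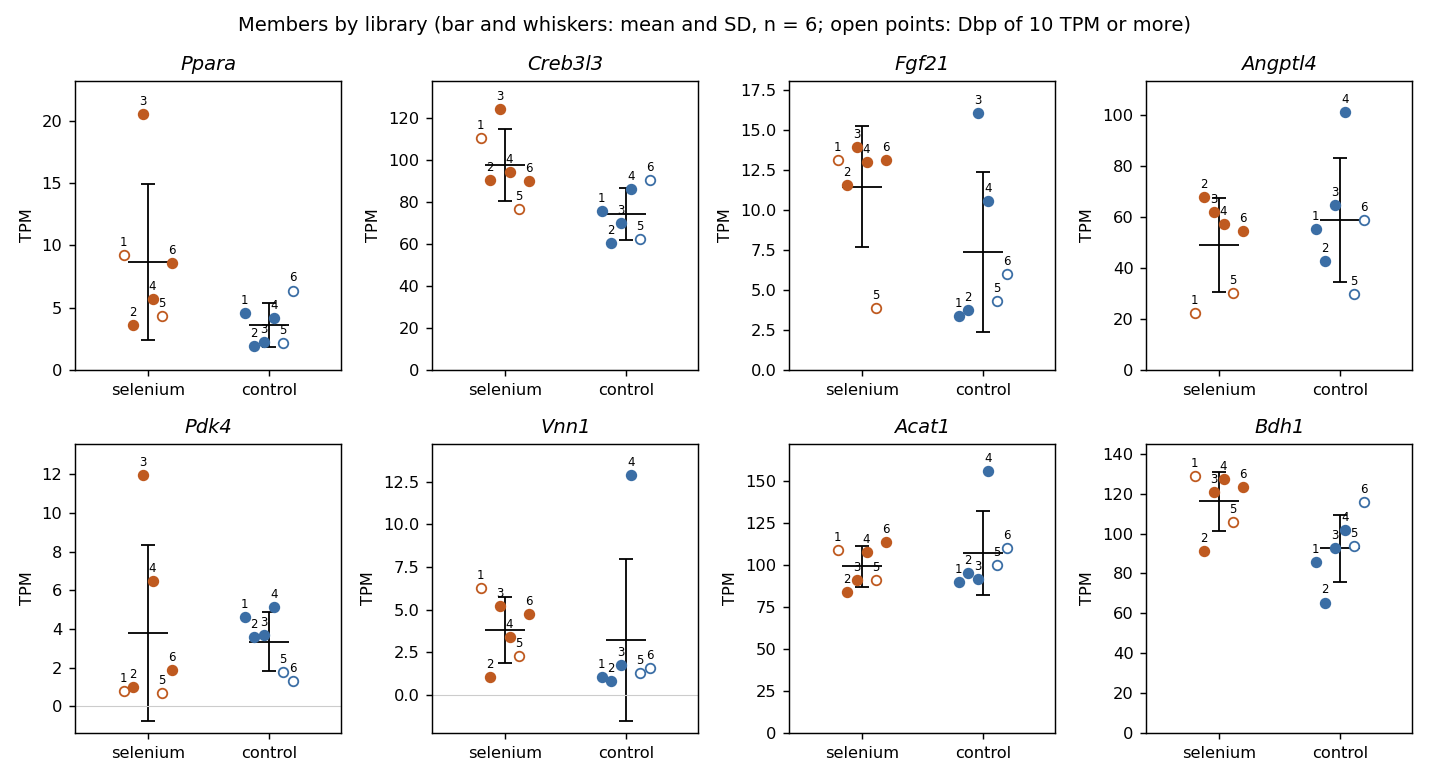
TPM of the 8 genes in each library, with selenium left and control right; numbers are replicate names, bars and whiskers are mean and SD (n = 6), and open points are libraries with Dbp of 10 TPM or more. Ppara and Creb3l3 lie above the control median in all 6 selenium libraries, while control 4 stands highest for Angptl4, Vnn1 and Acat1.

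Both transcription factors had higher levels with selenium in the deposited values, and neither passed the adjusted test. Ppara ran from 3.59 TPM over a median of 7.15 to 20.5 TPM with selenium, against 1.94, 3.21 and 6.39 TPM in controls. All 6 selenium libraries lay above the control median and 3 above the highest control, selenium 3 the furthest. Ppara averaged 8.67 ± 6.23 TPM with selenium and 3.59 ± 1.77 TPM in controls (SD, n = 6 each). By limma on log2(TPM + 1), which understates the change of low genes, its log2 change was 0.96 (SE 0.34, 95% interval 0.23 to 1.69), with unadjusted p = 0.0139 and adjusted p = 0.170. Without selenium 3 the log2 change was 0.68.

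Creb3l3 stood far higher in level than Ppara in both groups. Its lowest, median and highest values were 76.5, 92.3 and 124 TPM with selenium and 60.7, 72.9 and 90.5 TPM in controls. Selenium 1, 3 and 4 lay above every control, and the groups overlapped in the other 3. The mean was 97.6 ± 16.9 TPM with selenium and 74.3 ± 12.2 TPM in controls (SD, n = 6 each). The log2 change was 0.39 (SE 0.14, 95% interval 0.09 to 0.69), with unadjusted p = 0.0155 and adjusted p = 0.176 by limma. An exact permutation test over all labellings of the 12 libraries gave unadjusted p = 0.0173 for Creb3l3 and 0.0325 for Ppara.

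RefSeq promoter windows (250 bases before to 50 after a start, build GRCm38.p6, not the build named by the submitters) were found for 5 of the 8 genes, with 7 windows in all. They are given because these are starts of the 2 transcription factors and of their shared target Fgf21, and capitals mark a motif match. The Ppara start used lies 793 bases inside the gene as annotated in GENCODE M21, at an annotated transcript start. The Ppara stretch shown is 60 bases long and the others are 100 bases. The Ppara stretch is chr15:85735716-85735775 on the plus strand, the Creb3l3 stretch chr10:81098873-81098972 and the Fgf21 stretch chr7:45615491-45615590, both on the minus strand, each ending at the base before the start.
Ppara: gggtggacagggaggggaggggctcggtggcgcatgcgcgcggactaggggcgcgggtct
Creb3l3: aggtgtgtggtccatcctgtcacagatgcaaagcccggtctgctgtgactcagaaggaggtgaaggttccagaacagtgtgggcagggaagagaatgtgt
Fgf21: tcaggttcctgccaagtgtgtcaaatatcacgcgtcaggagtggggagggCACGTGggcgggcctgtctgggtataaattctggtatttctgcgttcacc
The capitals in Fgf21 are an E-box, CACGTG, a motif bound by clock and glucose-responsive factors, 50 bases before the start. Both strands were searched for exact matches to 5 motifs. Elements that depart from these sequences or lie outside the windows were therefore not looked for. The E-box was in 1 of the 7 windows and in 7.15% of all 32851 windows. The core motif of nuclear receptors, AGGTCA, was in 1 of the 7, at a second Creb3l3 start inside the gene, and in 16.3% of all. The PPAR-RXR element DR1, which is AGGTCA repeated after a spacer of 1 base (N) and so contains that core, was in 0 of the 7 and in 0.0396% of all, the D-box core TTANNTAA in 0 and 6%, and the cAMP response element TGACGTCA in 0 and 1.79%.

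The log2 changes of both secreted factors were of opposite sign, and neither passed the test. Fgf21, the fasting hormone that acts through the co-receptor beta-klotho, had a lowest, median and highest level of 3.90, 13.1 and 14.0 TPM with selenium and 3.41, 5.19 and 16.0 TPM in controls. All selenium libraries except selenium 5 stood at 11.6 TPM or more, a level reached by control 3 alone among controls. Fgf21 averaged 11.5 ± 3.78 TPM with selenium and 7.36 ± 5.00 TPM in controls (SD, n = 6 each), a log2 change of 0.68 (SE 0.35, 95% interval -0.07 to 1.43, limma unadjusted p = 0.0738, adjusted p = 0.325). Its unadjusted limma p changed with the library left out, over 12 fits that each left out 1. The 3 lowest were 0.00931 without selenium 5 (log2 change 0.93), 0.0107 without control 3 (0.92) and 0.0427 without control 4 (0.81). In the other fits it ran from 0.104 to 0.161. Over all 12 fits the log2 change of Fgf21 ran from 0.53 to 0.93 and its adjusted p from 0.128 to 0.519.

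Angptl4, a secreted inhibitor of lipoprotein lipase, ran from 22.4 over 55.9 to 67.9 TPM with selenium and from 29.7 over 57.1 to 101 TPM in controls. The medians lay close together, the highest value was control 4 and the lowest selenium 1. The log2 change was -0.26 (SE 0.30, 95% interval -0.91 to 0.39, limma adjusted p = 0.685), and the interval spans 0. It was -0.06 without selenium 1, -0.09 without control 4, -0.15 without selenium 5 and -0.43 without control 5.

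By coefficient of variation (SD over mean TPM), Pdk4 was the most variable of the 8 with selenium and Vnn1 in controls. PDK4 phosphorylates and shuts the pyruvate dehydrogenase complex, which spares pyruvate in fasting. Pdk4 had 0.72, 1.46 and 11.9 TPM as lowest, median and highest level with selenium, against 1.33, 3.63 and 5.16 TPM in controls. Selenium 3 and 4 were above every control, and selenium 1, 2 and 5 were below every control, so the selenium libraries lay on both sides of the control range. The coefficient of variation was 119% with selenium and 45.4% in controls. The mean TPM was higher with selenium (3.82, against 3.36 in controls) while the log2 change was -0.24 (SE 0.47, limma adjusted p = 0.825), which ran from -0.62 without selenium 3 to -0.04 without selenium 5 when 1 library was left out, and was -0.46 without selenium 4, -0.05 without selenium 1 and -0.08 without selenium 2. Selenium 4, at 6.49 TPM Pdk4, is the library with muscle transcripts, and their part in its Pdk4 level was not tested.

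Vnn1 encodes a membrane pantetheinase, which releases pantothenate and cysteamine, and is a textbook PPAR-alpha target in liver. Its lowest, median and highest values were 1.05, 4.08 and 6.25 TPM with selenium and 0.83, 1.42 and 12.9 TPM in controls. Control 4 alone held the high end, the other 5 controls lay at 1.77 TPM or less, and 5 of 6 selenium libraries lay above the control median. The log2 change was 0.52 (SE 0.45, 95% interval -0.43 to 1.48, limma unadjusted p = 0.258, adjusted p = 0.563). It was 0.96 without control 4 (limma unadjusted p = 0.00414, adjusted p = 0.141), the highest of 12 fits that each left out 1 library. In the other fits the log2 change ran from 0.37 to 0.75, with limma unadjusted p from 0.117 to 0.433.

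Acat1 and Bdh1 encode the first and the last enzyme of ketone body synthesis. Acat1, which also serves isoleucine breakdown, had 83.8, 99.4 and 114 TPM as lowest, median and highest level with selenium and 89.9, 97.8 and 156 TPM in controls. Control 4 was the high library and the others of both groups overlapped. The log2 change was -0.09 (SE 0.14, 95% interval -0.40 to 0.21, limma adjusted p = 0.776) and 0.021 without control 4.

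Bdh1 ran from 91.1 over 122 to 129 TPM with selenium and from 65.4 over 93.3 to 116 TPM in controls, with 4 selenium libraries above every control. It averaged 116 ± 14.8 TPM with selenium and 92.6 ± 16.8 TPM in controls (SD, n = 6 each). The log2 change was 0.34 (SE 0.14, 95% interval 0.03 to 0.64, limma unadjusted p = 0.0315, adjusted p = 0.224), and the unadjusted p was under 0.05 in 6 of the 12 fits that left out 1 library. It was 0.0588 and 0.0829 without control 1 and 2 and 0.0615, 0.0547, 0.0620 and 0.0597 without selenium 1, 3, 4 and 6. An antisense gene, Gm15743, overlaps 533 exonic bases of Bdh1 in GENCODE M21. The other members overlapped no exon of another gene there.

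Within a library the ratio of 2 genes is free of the scaling between libraries. Bdh1 TPM over Acat1 TPM was 1.09 at the lowest, 1.18 at the median and 1.32 at the highest with selenium, against 0.653, 0.946 and 1.05 in controls. Bdh1 was above Acat1 in 6 of 6 selenium libraries and in 2 of 6 controls. This ratio was chosen after the values were seen and was not tested.

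Of the 8 genes 0 passed in limma at 0.05 after Benjamini-Hochberg adjustment, where 0.331% of the 9980 tested genes did, 0.02% higher and 0.311% lower with selenium. That was 2 higher and 31 lower genes, which became 6 and 24 with median-of-ratios scaling, 2 and 10 with quantile normalization and 6 and 185 without mitochondrial-encoded genes. The exact permutation test also called 0 of the 8 after adjustment, and 0% of tested genes. At an unadjusted p under 0.05, limma had 3 of the 8 higher, Ppara, Creb3l3 and Bdh1, and 0 lower, where 18.5% of all genes were under that p, 7.01% higher and 11.4% lower. The exact test put the same 3 under an unadjusted p of 0.05, as it did 17.5% of all genes. The groups overlapped in all 8 genes, and did not overlap in 1.63% of all genes. Of the 8 log2 changes 5 were above 0, as were 45.4% over all genes, and their median was 0.36 beside -0.03 over all genes. Median-of-ratios scaling, quantile normalization and TPM without mitochondrial-encoded genes also gave 5 of 8 above 0, with medians of 0.38, 0.40 and 0.27. Mitochondrial-encoded genes made up 8.10 to 13.8% of the TPM with selenium and 13.3 to 22.8% in controls. Without them 2 of the 8, Ppara and Creb3l3, were under an unadjusted limma p of 0.05, as were 21.2% of all genes, and Bdh1 had a log2 change of 0.24 with unadjusted p = 0.102. The median over all genes was then -0.11.

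The authors' deposited table, whose sign is turned here to selenium over control, has its own fold changes and p-values. Of the 8 genes, 2 were higher in the authors' deposited table at an adjusted p under 0.05, Ppara with a log2 fold change of 1.37 and adjusted p = 0.00406 and Creb3l3 with 0.39 and 0.00950, and 0 were lower. Over the 9980 genes the authors' deposited table called 9.87%, 6.97% higher and 2.9% lower. In the authors' deposited table Bdh1 had 0.35 with adjusted p = 0.0780 and Fgf21 0.68 with 0.243. For Acat1 the authors' deposited table gave 0.19, opposite in sign to the log2 ratio of the authors' own mean TPM (-0.11). Between that table and the difference in mean log2(TPM + 1), 15.5% of tested genes had opposite signs. What sets the deposited fold changes apart from the TPM values was not tested.

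**Figure D2:**
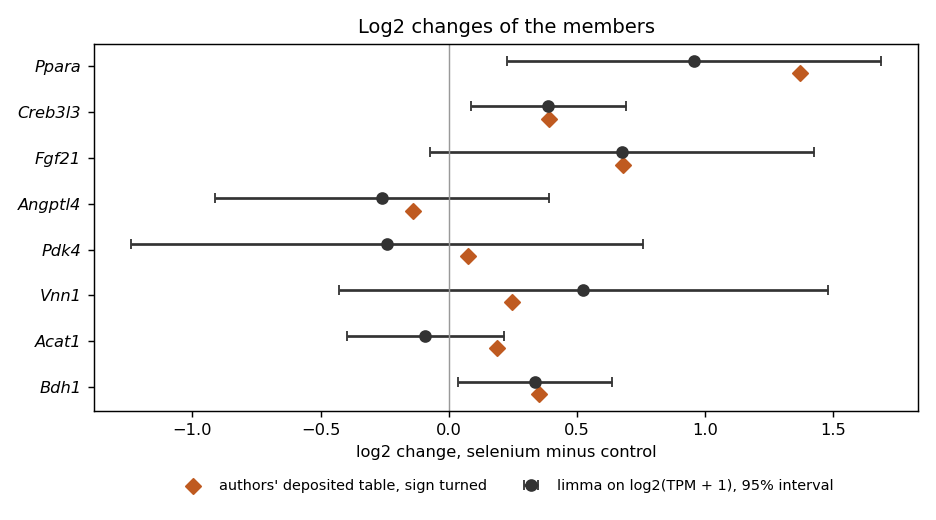
Log2 change of each of the 8 genes, selenium minus control, from limma on log2(TPM + 1) with its 95% interval (circles) and from the authors' deposited table with its sign turned (diamonds). The intervals of Ppara, Creb3l3 and Bdh1 lie above 0 before adjustment, and Acat1 and Pdk4 differ in sign between the 2 sources.

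Several of the 8 genes stood highest in the same single libraries. Selenium 3 was among the 3 highest libraries for 5 of the 8 and had the highest mean deviation over them, 0.75 log2 units above the 12-library mean. Selenium 1 was among the 3 highest for 4 of the 8 and among the 3 lowest for 2. Control 4 was among the 3 highest for 4 and the 3 lowest for 0 and stood at 0.54, above the other controls, which ran from -0.52 to -0.04. The other selenium libraries ran from -0.42 to 0.34. Selenium 3 and control 4 differed in which genes were high. Ppara was at 20.5 TPM in selenium 3 and 4.16 TPM in control 4, while Vnn1 was at 5.19 and 12.9 TPM, Acat1 at 91.3 and 156 TPM and the PPAR-alpha target Cyp4a10 at 65.2 and 249 TPM.

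**Figure D3:**
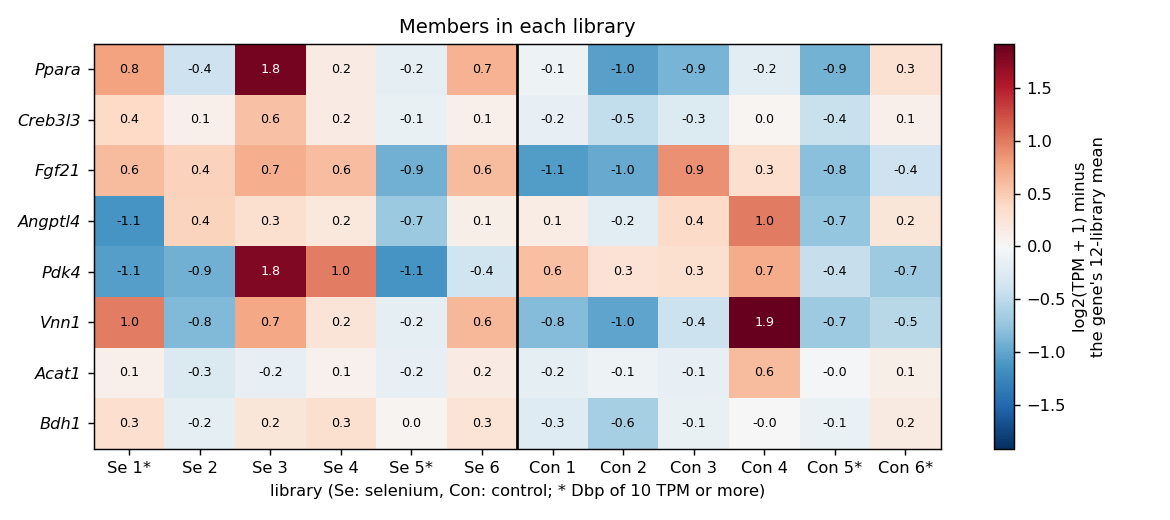
Deviation of each gene from its 12-library mean on log2(TPM + 1), for 6 selenium libraries (Se) left of the line and 6 control libraries (Con) right of it, with asterisks on libraries with Dbp of 10 TPM or more. Selenium 3 is high for Ppara and Pdk4 and control 4 for Vnn1 and Angptl4, and Pdk4 is low in all 4 marked libraries.

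The members differed in how far their levels went with the Dbp split. Acat1 averaged 99.8 TPM at high and 99.0 TPM at low Dbp with selenium, and 105 and 108 TPM in controls. In the 4 libraries with high Dbp, Pdk4 was at 0.72 and 0.82 TPM with selenium and 1.33 and 1.78 TPM in controls, against 1.00 to 11.9 TPM with selenium and 3.58 to 5.16 TPM in controls in the 8 others. Among those 8 libraries, 4 per group, Ppara averaged 9.61 TPM with selenium and 3.24 TPM in controls (log2 difference 1.13, exact permutation p = 0.0857). Creb3l3 averaged 99.7 and 73.2 TPM there, without overlap between the groups (0.44, exact permutation p = 0.0286, the smallest that 4 against 4 allows). In limma on these 8 libraries 21.4% of all genes were under an unadjusted p of 0.05. How many of all genes did not overlap there was not counted. Among the 4 libraries with high Dbp the log2 differences were 0.61 for Ppara, 0.29 for Creb3l3 and 0.16 for Bdh1, with 2 libraries a group and no test. Within the low set the groups also differed in the clock repressor Nr1d1. Its level was 8.60 to 18.1 TPM in selenium 2, 3, 4 and 6 and 1.04 to 2.92 TPM in controls 1 to 4. With the first 2 principal components of the clock gene list as covariates, the log2 changes were 0.70 for Ppara, 0.24 for Creb3l3 and 0.16 for Bdh1, and 0 members were higher at an unadjusted p under 0.05, where 11% of all genes were under that p in either direction (limma adjusted p = 0.591, 0.629 and 0.731). Angptl4 was then lower, with -0.59 and limma unadjusted p = 0.0301 (adjusted p = 0.391). With the first component alone 3 members were higher at an unadjusted limma p under 0.05, Ppara, Creb3l3 and Fgf21, as were 19.4% of all genes in either direction, with log2 changes of 0.95, 0.39 and 0.79.

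Around the members, 12 lists of related genes were read from the same fit, and 0 genes of any list passed the adjusted test in limma. Of 38 tested textbook PPAR-alpha targets, 7 were higher and 1 lower at an unadjusted p under 0.05, 32 log2 changes were above 0 and the median was 0.28. Over all genes 7.01% were higher and 11.4% lower at that p, 45.4% were above 0 and the median was -0.03. The lower one was Cd36, a fatty acid carrier of the cell membrane, named for its value, with a log2 change of -0.77 (limma adjusted p = 0.260). Under median-of-ratios scaling, quantile normalization and TPM without mitochondrial-encoded genes 11, 10 and 5 targets were higher and 1 lower, and 30 to 34 were above 0. The 3 with the smallest p were Gpd1, the cytosolic glycerol-phosphate dehydrogenase, Hadha, of mitochondrial beta-oxidation, and Plin2, a lipid droplet coat. Hadha averaged 85.0 ± 14.2 TPM with selenium and 53.9 ± 17.8 TPM in controls, Gpd1 55.8 ± 7.11 and 37.7 ± 11.4 TPM, and Plin2 331 ± 84.2 and 204 ± 51.4 TPM (SD, n = 6 each). In the same order the log2 changes were 0.69, 0.59 and 0.69, with adjusted p = 0.112, 0.105 and 0.117 in limma. The authors' deposited table called 7 of the 38 higher, among them Acaa1a, Cpt1a, Hadha, Hadhb, Plin2 and Gpd1, and 0 lower.

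The Cyp4a genes are steeply induced by PPAR-alpha agonists in mouse liver. Cyp4a10, a microsomal fatty acid omega-hydroxylase, averaged 56.6 ± 23.0 TPM with selenium and 67.8 ± 93.1 TPM in controls, where control 4 alone was at 249 TPM. Cyp4a14 averaged 10.9 ± 5.60 TPM with selenium and 15.1 ± 23.7 TPM in controls. In log2 they differed by 0.53 and 0.54, with limma adjusted p = 0.704 and 0.750, so the mean TPM and the mean log2 value differed in sign. Cyp4a genes are near copies of each other and their reads may be shared. Cpt1a, which admits fatty acids to mitochondria, had a log2 change of 0.53 (limma unadjusted p = 0.0162, adjusted p = 0.180).

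Among 16 partners, coactivators and corepressors, 2 were higher and 1 lower at an unadjusted p under 0.05, with a median of -0.01. Rxra, the obligate partner of PPAR-alpha, averaged 46.1 ± 8.82 TPM with selenium and 31.9 ± 10.4 TPM in controls (log2 change 0.55, limma adjusted p = 0.169), and Rxrb had 0.30 (adjusted p = 0.226). The deacetylase Sirt1 had -0.38 (adjusted p = 0.149). Ppargc1a, a coactivator induced by fasting, stayed under the filter at 0.417 ± 0.219 TPM with selenium and 0.753 ± 0.290 TPM in controls. Among 14 other regulators of the fasted liver 2 were higher and 1 lower, with a median of -0.06. Cebpb, a transcription factor raised by fasting and by inflammation, was at 3.99 to 14.6 TPM with selenium and 15.8 to 30.0 TPM in controls, without overlap (log2 change -1.04, limma adjusted p = 0.0671). Hnf4a and Nr1h3 had 0.39 and 0.30 (adjusted p = 0.243 and 0.259).

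Of 8 tested ketone body genes outside the members 1 was higher at an unadjusted p under 0.05 and 0 lower, with a median of 0.17. The log2 change was 0.64 for Aacs and -0.40 for the monocarboxylate transporter Slc16a7 (limma adjusted p = 0.329 and 0.337). Of the FGF21 receptors, Klb, which encodes beta-klotho, had a log2 change of 0.45, Fgfr2 and Fgfr3 had -0.33 and -0.34, all 3 at an unadjusted p under 0.05 (limma adjusted p = 0.180, 0.189 and 0.188), and Fgfr4 had 0.05. Of 8 genes of CREB3L3 cleavage, family and targets 2 were higher and 0 lower, with a median of 0.09. They were Creb3l2, with 0.36, and the lipase activator Apoa5, with 0.53 (limma adjusted p = 0.184 and 0.226), and the protease gene Mbtps1 had 0.25 (0.281).

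Of the 5 genes around Angptl4 and lipoprotein lipase that are reported here, which are not the whole list, 0 were under an unadjusted limma p of 0.05, with log2 changes of 0.33 for Angptl8, 0.17 for Lipc, 0.00 for Lmf1, -0.31 for Gpihbp1 and -0.66 for Lpl.

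In the pyruvate dehydrogenase list of 10, which holds the other kinases beside Pdk4, 0 were higher and 1 lower at an unadjusted p under 0.05 (median 0.10). Pdk2, the main kinase of the fed liver, had -0.29, Pdk1 0.20 and the pyruvate carrier Mpc1 -0.29 (limma adjusted p = 0.227, 0.410 and 0.316). Among 11 genes of coenzyme A metabolism around Vnn1, 2 were higher and 1 lower (median 0.02), namely the peroxisomal hydrolase Nudt7 (0.79) and the synthase Coasy (0.36), and Ppcdc (-0.48), with limma adjusted p = 0.264, 0.231 and 0.121.

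Fasting-induced gluconeogenic and signalling genes gave 1 higher and 0 lower of 12, with a median of -0.16. Fbp1, of gluconeogenesis, had 0.67, Igfbp1, an insulin-repressed binding protein, -1.26 and Gdf15 -0.39 (limma adjusted p = 0.148, 0.370 and 0.418). Feeding-induced lipogenic genes gave 0 higher and 1 lower of 11, with a median of 0.07. The sugar-responsive factor Mlxipl had -0.73, Me1 0.28 and Acaca 0.22 (limma adjusted p = 0.0928, 0.405 and 0.469). Of 12 clock genes 1 was higher, Nr1d1 with 1.57, and 1 lower, Cry1 with -0.62 (limma adjusted p = 0.220 and 0.184), and the median was 0.06. At an adjusted p under 0.05 the authors' deposited table had calls in several lists beside the targets. Those higher included Rxra, Rxrb, Nr1h3, Klb, Creb3l2, Mbtps1, Nudt7 and Fbp1, and those lower included Cebpb, Mlxipl and Cry1. Over all tested genes it called 6.97% higher and 2.9% lower.

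**Figure D4:**
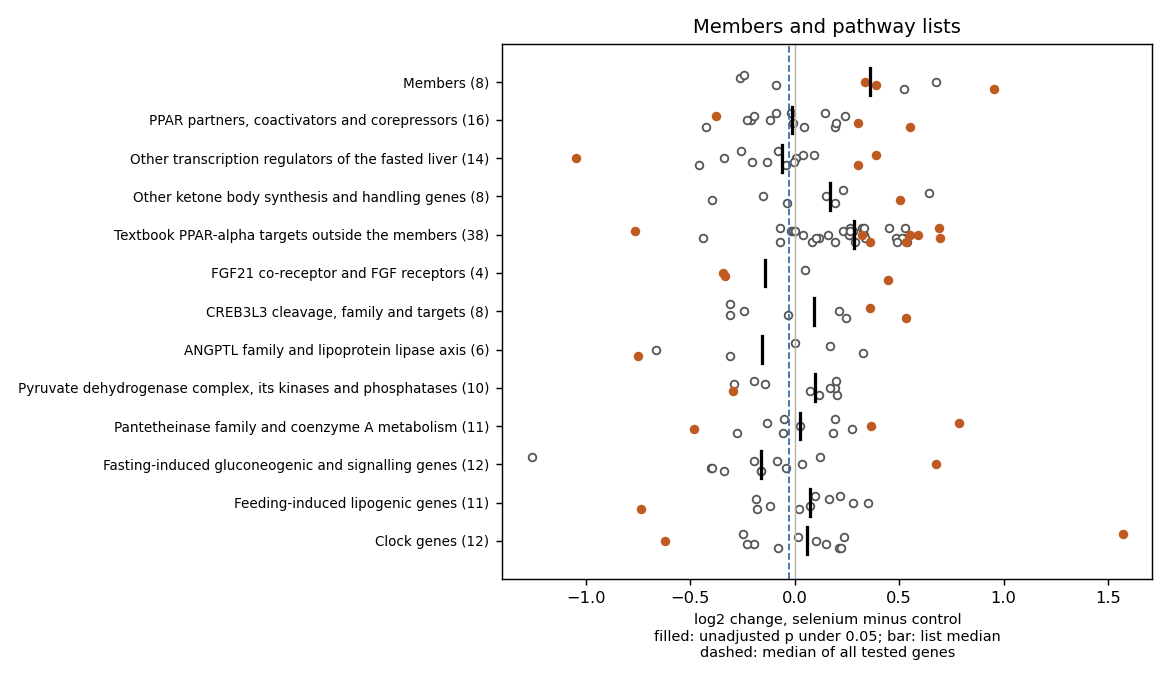
Log2 change, selenium minus control, of every tested gene in the 8 members and in 12 lists of related genes (number of genes in brackets), filled where the unadjusted limma p was under 0.05, with the list median as a bar. The median of the PPAR-alpha targets is 0.28 and that of all tested genes, the dashed line, -0.03.

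Genes with the most similar pattern were found by Pearson's r of log2(TPM + 1) over the 12 libraries, among 5252 genes with a mean of at least 5 TPM. As the highest of 5252 values, these r describe likeness and carry no p. For Ppara they were Arcn1, a coat protein subunit (r = 0.96), Numb (0.96), Metap2 (0.96), the kinase Jak1 (0.95) and the mitochondrial kinase Ak4 (0.95), and r was 0.95 to 0.98 in the 8 libraries with low Dbp. Creb3l3 was closest to Chp1 (0.97) and Slc39a9 (0.95), and Bdh1 to Ipo5 (0.93) and the elongase Elovl2 (0.91). Angptl4 was closest to Pck1, the gluconeogenic enzyme induced by fasting (r = 0.95, Spearman's rho 0.87). Acat1 was closest to Slc17a2 (0.93) and Acadl (0.90), but r fell to 0.74 and 0.76 without the 2 libraries farthest from the Acat1 median. Vnn1 was closest to Gigyf2 (0.92) and Chordc1 (0.91), Fgf21 to Ddx21 (0.88) and Rab6a (0.87), and Pdk4 to Atg5 (0.84) and Gpat3 (0.84), which were at 0.70 and 0.69 in the libraries with low Dbp.

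Markers of other cell types were read beside these values. All 8 Kupffer cell markers had log2 changes above 0, with a median of 0.48 and 0 past an adjusted or unadjusted p of 0.05 in limma, while the authors' deposited table called 1 of them, Cd5l, higher. They summed to 43.0 to 192 TPM with selenium and 38.9 to 101 TPM in controls. Stellate markers had 4 of 4 tested changes below 0, 2 of them, Dcn and Ecm1, at an unadjusted p under 0.05, and summed to 51.5 to 108 TPM with selenium and 83.4 to 127 TPM in controls. Sinusoidal endothelial markers summed to 19.3 to 45.4 TPM with selenium and 20.7 to 49.0 TPM in controls, and cholangiocyte markers to 16.4 to 134 and 28.1 to 269 TPM. Red blood cell markers summed to 378 to 1494 and 404 to 4270 TPM, and neutrophil markers to 3.17 to 67.8 and 8.56 to 93.7 TPM. The adipocyte markers Adipoq, Plin1, Lep and Retn were at 0 in at least 6 libraries, as were 6 of the 7 pancreatic acinar markers, and the lists summed to 0.88 to 4.96 and 22.2 to 46.8 TPM with selenium and 2.30 to 5.75 and 16.2 to 46.8 TPM in controls. Selenium 3, the library highest for Ppara and Pdk4, had the highest selenium sums of Kupffer (192 TPM), neutrophil (67.8 TPM), endothelial (45.4 TPM), stellate (108 TPM), cholangiocyte (134 TPM) and lymphocyte markers (2.77 TPM) and the lowest of hepatocyte markers (38914 TPM). The part of these other cells in the values of the members was not tested.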

How the data were processed

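The labels put 12 liver libraries into selenium and control by title. Per the labels' protocols, RNA was extracted with TRIzol and a column clean-up and sequenced on standard Illumina libraries. HISAT2 2.1.0, RSEM 1.2.8, DESeq2 and the GRCm39 build are named in the submitters' processing notes; strand use and annotation are not given in the sources used here. The authors deposited TPM per gene, which keeps no depth or counting error, and the series table equalled the 12 single-library tables in 100% of values. The deposited table also holds the authors' log2 fold change (control over selenium, turned here), raw p-value and adjusted p-value.

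Genes with at least 1 TPM in 6 or more libraries (9980) were tested on log2(TPM + 1) with limma 3.58.1 in R 4.3.3, with an intensity trend, two-sided, and Benjamini-Hochberg adjustment over all of them. The procedure was tested on simulated data. Exact permutation tests were two-sided. The 8 members, the 23 lists (245 genes, all 245 matched) and the alternatives were chosen with earlier results of these data known. Named were the members, the 3 list genes with the smallest p (all, for lists of up to 6), 12 preset genes, and genes of like pattern; some of these genes are not reported here. Plots used matplotlib 3.10.9. Replicate numbers only name samples. The p-values set the difference between the groups against the spread among libraries within them. That spread may be technical where 2 libraries came from 1 mouse.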

Additional observations from a re-analysis of the deposited data

Results flagged for a closer look

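Within each group of 6, a library is listed here when its gap to the next one was a large part of the group's range by Dixon's test. Chance gives about 1 such case in 20 groups, and 20 were found in the 148 groups of named genes examined, 11 of them in control 4. The count cannot be read against chance, since Slc17a2 and Acadl were named for their likeness to Acat1, Chordc1 for that to Vnn1 and Jak1 for that to Ppara, and they repeat the cases of those members. Among the members, selenium 3 had 20.53 TPM of Ppara, with the other selenium libraries at 3.59 to 9.25 TPM, and selenium 5 had 3.90 TPM of Fgf21, with the others at 11.57 to 13.95 TPM. Control 4 had 12.92 TPM of Vnn1, with the other controls at 0.83 to 1.77 TPM, and 155.73 TPM of Acat1, with the others at 89.93 to 110.28 TPM.

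Control 4 was also the highest control for Cyp4a10 (248.84 TPM), Cyp4a14 (61.11 TPM), Acadl (162.05 TPM), Igfbp1 (90.05 TPM), Slc17a2 (48.24 TPM), Cry1 (12.83 TPM), Chordc1 (9.22 TPM), Sirt1 (3.50 TPM) and Ppargc1a (1.33 TPM). Control 6 was the highest control for Gpd1 (59.68 TPM), Gpihbp1 (11.87 TPM) and Klb (3.82 TPM), and control 5 for Angptl8 (45.56 TPM) and Lpl (11.10 TPM). Selenium 3 was the highest selenium library for Jak1 (16.94 TPM) and selenium 2 for Lmf1 (21.40 TPM).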

How the results depend on the processing

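Over 28 alternatives, 0 members passed the adjusted threshold in each that gave a p, and the log2 changes of Ppara, Creb3l3, Fgf21, Vnn1 and Bdh1 stayed above 0 and that of Angptl4 below 0 in every alternative that fitted them. With 1 library left out, Ppara ran from 0.68 to 1.13, Creb3l3 from 0.32 to 0.45 and Bdh1 from 0.24 to 0.40. Acat1 turned to 0.084 with array weights and 0.021 without control 4, and Pdk4 to 0.020 with the first clock component as covariate; the cause was not tested. A filter of 5 TPM left out Ppara, Pdk4 and Vnn1. The median of the members ran from 0.20 to 0.43 over all alternatives.

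The 3 members higher at an unadjusted p under 0.05 became 2 to 5 with 1 library left out, where 13.9 to 21.8% of all genes were under that p, and 0 with 2 clock components (11% of all genes), where 1 was lower. Genes past the adjusted threshold, 2 higher and 31 lower, became 0 to 56 and 7 to 115 with 1 library left out. The higher count was 1 with a pseudocount of 0.1 or a filter of 5 TPM and 6 with median-of-ratios scaling. The lower count was 10 with quantile normalization and 19 with the first clock component. Both moved without a filter (0 and 1), without mitochondrial-encoded genes (6 and 185), with robust limma (4 and 52), array weights (114 and 141), exact permutation tests (0 and 0), 2 clock components (0 and 4) and in the 8 libraries with low Dbp (34 and 13). Samples of the same replicate number shared only a number: their deviations correlated at -0.136 to 0.107, 0 of 6 selenium libraries correlated best with their own, and a replicate block gave 0 higher and 3 lower genes. TPM keeps no depth, so counting error of low genes such as Pdk4 and Vnn1 is unknown.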

Other observations

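Selenium 4 held transcripts of skeletal muscle. The actin gene Acta1 was at 58.5 TPM, the troponin Tnnt3 at 48.2 TPM, the muscle creatine kinase Ckm at 30.8 TPM and the myosin gene Myh4 at 7.41 TPM there, while each was at 0.25 TPM or less in every other library. Without selenium 4 the log2 change of Ppara was 1.02, that of Creb3l3 0.39 and that of Bdh1 0.31.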
